A study of Mus musculus with 16 samples.

Results

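The p200 genes of the mouse form a cluster on chromosome 1 that encodes proteins of the PYHIN family. Many of these proteins, though not all, pair an N-terminal pyrin domain with 1 or more C-terminal HIN domains. HIN domains bind DNA, and pyrin domains join proteins to one another. The 10 genes described here (Ifi203, Ifi204, Ifi205, Ifi206, Ifi207, Ifi208, Ifi209, Ifi211, Ifi213 and Aim2) were chosen by gene name, with their measured levels in all 4 treatment groups of this study already known, out of 56748 genes in the count table. Their values and calls below are therefore descriptions. All 10 had enough reads to be among the 13438 genes tested. Of these, Ifi205 had only 0.121 to 5.50 CPM (counts scaled to the size of the library) in the libraries without LPS. Its DMSO libraries held 34 to 143 counts each.

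The study treated bone marrow-derived macrophages from 4 male wild-type C57BL6 mice in 4 ways, with cells of the same 4 mice in each group (n = 4). The DMSO group received the solvent, the SR9009 group received 10 µM SR9009 for 16 h, the LPS group received 100 ng/mL LPS for 6 h, and the SR9009 and LPS group received 10 µM SR9009 for 16 h and then LPS at 100 ng/mL for 6 h. All cells had been grown out of bone marrow in medium with L929 cell supernatant, a source of macrophage colony-stimulating factor, and were kept in it during treatment. SR9009 is a synthetic agonist of the nuclear receptors REV-ERBα and REV-ERBβ, transcriptional repressors of the circadian clock. LPS, from the outer membrane of Gram-negative bacteria, acts on macrophages through Toll-like receptor 4. For the LPS group the treatment label gives only LPS, whereas the protocol describes an overnight incubation in SR9009 or DMSO beforehand.

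Interferons made after Toll-like receptor activation act back on macrophages through their receptor and switch on many p200 genes. Aim2 encodes the best-known member of the family, a receptor for double-stranded DNA in the cytosol that recruits the adaptor ASC (Pycard) and caspase-1 (Casp1) into an inflammasome. Ifi204 encodes p204, a relative of human IFI16 that has been linked to DNA-induced interferon through STING. Ifi202b, another gene of the cluster, encodes a protein without a pyrin domain that antagonises AIM2.

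On the GRCm39 assembly the 10 genes lay on chromosome 1 between positions 173178445 and 173859376, a span of 681 kb that held 21 annotated genes. From the low to the high coordinate, Aim2 (ENSMUSG00000037860) occupied 173178445 to 173293606 on the plus strand and Ifi206 (ENSMUSG00000037849) 173296051 to 173318607 on the minus strand. Ifi213 (ENSMUSG00000073491) occupied 173393849 to 173426840 on the minus strand. Ifi209 (ENSMUSG00000043263) and Ifi208 (ENSMUSG00000066677) were on the plus strand, at 173458483 to 173475494 and 173501241 to 173525961. The other 5 were on the minus strand, with Ifi207 (ENSMUSG00000073490) at 173550993 to 173569313, Ifi204 (ENSMUSG00000073489) at 173574859 to 173594509, Ifi211 (ENSMUSG00000026536) at 173723911 to 173740612, Ifi203 (ENSMUSG00000039997) at 173747973 to 173770238 and Ifi205 (ENSMUSG00000054203) at 173839564 to 173859376.

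The start-site regions of the family are shown because several are near copies of one another. RefSeq start-site windows on GRCm38.p6, from 250 bases before to 50 bases after each annotated start, were held for 9 of the 10 genes, all but Ifi204. The interferon-stimulated response element core (the letters GAAA, any 2 bases, and GAAA again) was searched on both strands. It was in a window of 7 of these 9 genes, for Ifi203 in 1 of its 2 windows. Of the 27025 genes with windows, 3.99% held it, and of all 32851 windows 3.44%. No match was found in the windows of Aim2 and Ifi209, which says only that these letters are not in that window. The 60 bases around the match on the gene's own strand are given 5′ to 3′, with the motif in capitals. The stretches lie at chr1:173491329-173491388 for Ifi206, chr1:173673577-173673636 for Ifi208, chr1:173599316-173599375 for Ifi213, chr1:174031860-174031919 for Ifi205, chr1:173741821-173741880 for Ifi207, chr1:173913054-173913113 for Ifi211 and chr1:173942498-173942557 for Ifi203, of which Ifi208 is on the plus strand and the others are on the minus strand.
Ifi206: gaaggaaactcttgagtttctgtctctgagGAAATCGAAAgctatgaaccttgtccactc
Ifi208: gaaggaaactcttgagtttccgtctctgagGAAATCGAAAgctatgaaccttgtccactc
Ifi213: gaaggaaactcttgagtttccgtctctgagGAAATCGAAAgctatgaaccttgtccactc
Ifi205: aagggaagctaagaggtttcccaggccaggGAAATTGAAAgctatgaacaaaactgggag
Ifi207: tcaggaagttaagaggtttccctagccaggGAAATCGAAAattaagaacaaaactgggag
Ifi211: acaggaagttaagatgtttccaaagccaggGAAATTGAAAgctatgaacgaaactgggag
Ifi203: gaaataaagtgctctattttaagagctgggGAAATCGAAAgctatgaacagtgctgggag
The stretches of Ifi208 and Ifi213 were identical over all 60 bases, and that of Ifi206 differed from each by 1 base. Ifi205, Ifi207 and Ifi211 formed another set, with 50 to 53 of 60 bases shared between any pair. The stretch of Ifi203 shared 36 to 39 bases with the other 6 shown, and all 60 with that of Mndal, a p200 gene of the same span that is not among the 10. The motif began 35 to 134 bases before the annotated start in the 7 genes.

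The 16 libraries held 12616442 to 24214863 counts. The SR9009 library of mouse 1 stood apart, with the lowest total and with 13298 genes detected against 16419 to 18947 in the other 15. For SR9009 against DMSO, the number of the 10 genes called lower and some of their differences are therefore also given without it. So are some counts of the pathway lists. The 10 macrophage markers examined summed to 6770 to 13300 CPM in all libraries, and the neutrophil markers to at most 7.24 CPM, with Ly6g at 0. The neutrophil sum was 2.16 to 7.24 CPM with LPS and 0.182 to 0.401 CPM in DMSO. Mast cell and megakaryocyte markers summed to 17.5 to 42.7 CPM in DMSO, 29.8 to 69.6 CPM with LPS, 23.3 to 61.9 CPM with SR9009 and 29.4 to 76.9 CPM with both agents, with Mcpt8 and Fcer1a at 0. The part of either list in the results was not tested. In bulk RNA, fewer cells that express a gene and less of its RNA per cell cannot be told apart. The copies in this family also limit the counts of single genes, since reads that match more than 1 gene may have been split or dropped. Of the stretches of 100 bases in its longest transcript, Ifi211 shared 56.9% with a transcript of another gene, Ifi209 17.9%, Ifi204 16.8%, Ifi206 13.2% and Ifi208 8.23%, against 3.31% for Ifi203, under 1% for Ifi207 and Ifi213 (0.813% and 0.267%), and 0.0% for Ifi205 and Aim2. Of those of Ifi211, 37.2% were found in a transcript annotated to Ifi205 other than its longest.

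Levels of different genes were compared per deposited gene length, as deposited fragments per kilobase scaled to library depth (FPKM). For some genes that length exceeds the longest transcript examined, as for Ifi203 (6706 against 3754 bases), Ifi204 (3561 against 2296) and Ifi213 (6840 against 3090). For Ifi207 and Ifi211 both lengths were equal (3422 and 1785 bases). The order below therefore depends on the length used, and other lengths were not tried. In DMSO, Ifi207 had the highest mean at 69.4 ± 9.20 FPKM (SD, n = 4), followed by Ifi204 at 50.0 ± 20.1, Ifi209 at 43.3 ± 16.2, Ifi211 at 32.9 ± 15.3 and Ifi203 at 22.6 ± 7.17 FPKM. The ranges of neighbours in this order overlapped, and the range of Ifi203 did not overlap that of the next gene, Aim2, at 11.4 ± 0.839 FPKM. Ifi206 at 9.93 ± 5.37, Ifi213 at 3.76 ± 2.15, Ifi208 at 2.79 ± 1.74 and Ifi205 at 0.746 ± 0.437 FPKM came last. With LPS the order changed. Ifi209 (576 ± 243 FPKM), Ifi211 (503 ± 117) and Ifi204 (501 ± 109) had overlapping ranges and lay above Ifi207 (192 ± 58.3), Ifi205 (186 ± 84.4), Ifi203 (147 ± 31.4) and Ifi206 (142 ± 35.3), and these in turn lay above Ifi208 (56.6 ± 12.3), Ifi213 (47.9 ± 11.5) and Aim2 (38.0 ± 20.4). On this measure, Ifi205 thus moved from the last place to the fifth, and Ifi207 from the first to the fourth.

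In the SR9009 group, Ifi207 (31.2 ± 7.94 FPKM), Ifi204 (24.6 ± 15.2), Aim2 (18.1 ± 14.9), Ifi209 (17.2 ± 12.3), Ifi211 (10.4 ± 4.93) and Ifi203 (10.0 ± 6.75) lay above Ifi206 (1.44 ± 0.662), which lay above Ifi213 (0.568 ± 0.212), Ifi205 (0.227 ± 0.278) and Ifi208 (0.149 ± 0.105). The mean of Aim2 there holds 40.4 FPKM in mouse 1, against 10.0, 11.0 and 10.9 FPKM in mice 2, 3 and 4. In the SR9009 and LPS group, Ifi209, Ifi211 and Ifi204 again had the highest means, at 448 ± 215, 367 ± 80.9 and 328 ± 54.3 FPKM, and Ifi213 and Ifi208 the lowest, at 25.7 ± 7.12 and 25.0 ± 8.18 FPKM. Together the 10 genes took 0.0785% to 0.150% of all counts in DMSO and 0.507% to 0.806% with LPS. They took 0.0370% to 0.0400% in the SR9009 libraries of mice 2, 3 and 4, 0.0840% in that of mouse 1, and 0.347% to 0.677% with both agents.

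**Figure D1:**
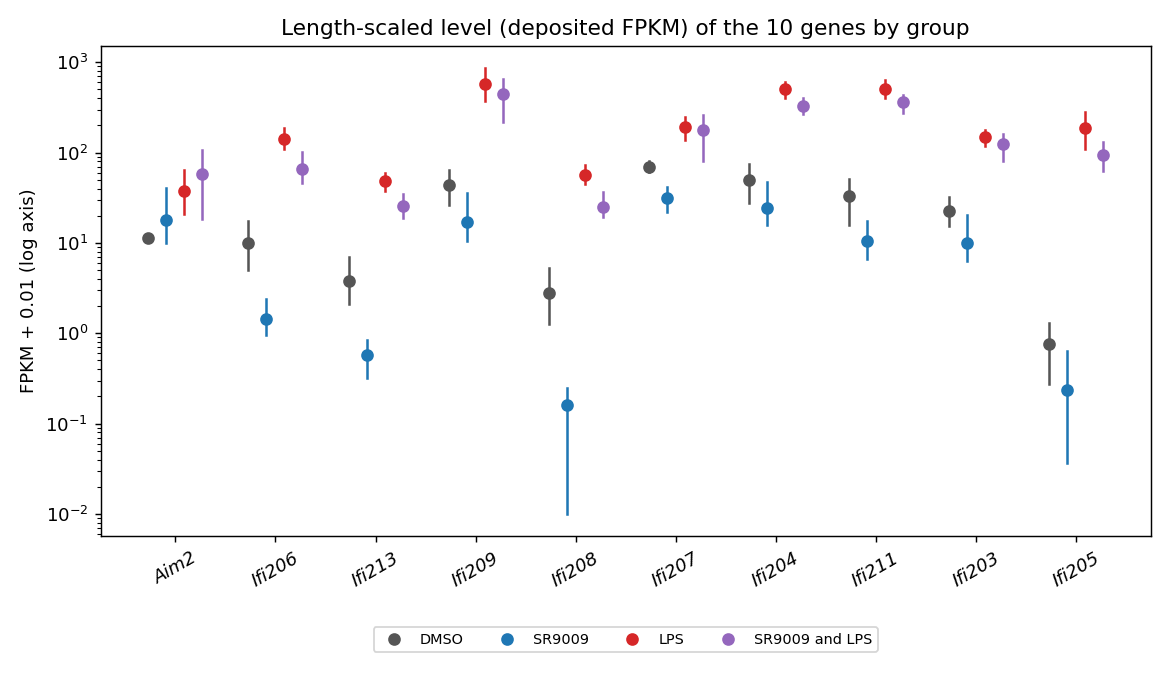
Deposited FPKM of each of the 10 genes (logarithmic axis, FPKM + 0.01) in the 4 groups. Dots are means of 4 libraries and lines run from the lowest to the highest library, and Ifi205 moves from a mean of 0.746 FPKM in DMSO to 186 FPKM with LPS.

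All 10 genes were higher with LPS than with DMSO in each of the 4 mice, as were 33.5% of all tested genes, and no range overlapped between the groups. All 10 were called higher by edgeR's quasi-likelihood test (adjusted p under 0.05 over all genes tested), where 19.4% of all tested genes were called higher and the groups did not overlap, LPS being higher, for 27.0%. The log2 differences, from TMM-scaled counts, ran from 1.42 (Ifi207) to 7.91 (Ifi205), with a median of 3.65 against -0.08 for all genes.

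Ifi205, which encodes p205, was at 3.82, 5.50, 1.14 and 2.37 CPM in DMSO in mice 1 to 4 and at 1129, 970.5, 460 and 510 CPM with LPS. Every LPS library was far above every DMSO library, and the log2 difference was 7.91 (SE 0.783). Ifi208 was at 12.2, 28.6, 6.79 and 13.0 CPM in DMSO and at 290.3, 382, 242 and 269 CPM with LPS, a log2 difference of 4.29 (SE 0.561). Ifi211 (3.88, SE 0.380), Ifi206 (3.78, SE 0.400), Ifi209 (3.67, SE 0.489) and Ifi213 (3.62, SE 0.382) lay close together. Ifi204 (3.27, SE 0.367) and Ifi203 (2.65, SE 0.369) differed by less.

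The cytosolic DNA receptor Aim2 was at 37.6, 41.6, 40.8 and 44.3 CPM in DMSO, the narrowest range of the 10 genes relative to its mean. With LPS it was at 219 and 151 CPM in mice 1 and 2 and at 74.8 and 81.1 CPM in mice 3 and 4. The ratio of LPS to DMSO was thus 5.82 and 3.62 in mice 1 and 2 and 1.83 in both mice 3 and 4, and the log2 difference over the 4 mice was 1.68 (SE 0.573). This call was the least firm of the 10. It missed the threshold in 11 of 30 other settings, among them the fits without mouse 1, 2 or 3, those lacking any 1 of the 4 DMSO libraries, and without the LPS library of mouse 1 or mouse 2 (log2 difference 1.25 to 1.87, adjusted p by the same test 0.0527 to 0.128). Ifi207 had the highest level in DMSO (230, 287, 213 and 247 CPM) and the smallest difference, with 799, 826, 481 and 505 CPM after LPS (log2 1.42, SE 0.347).

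**Figure D2:**
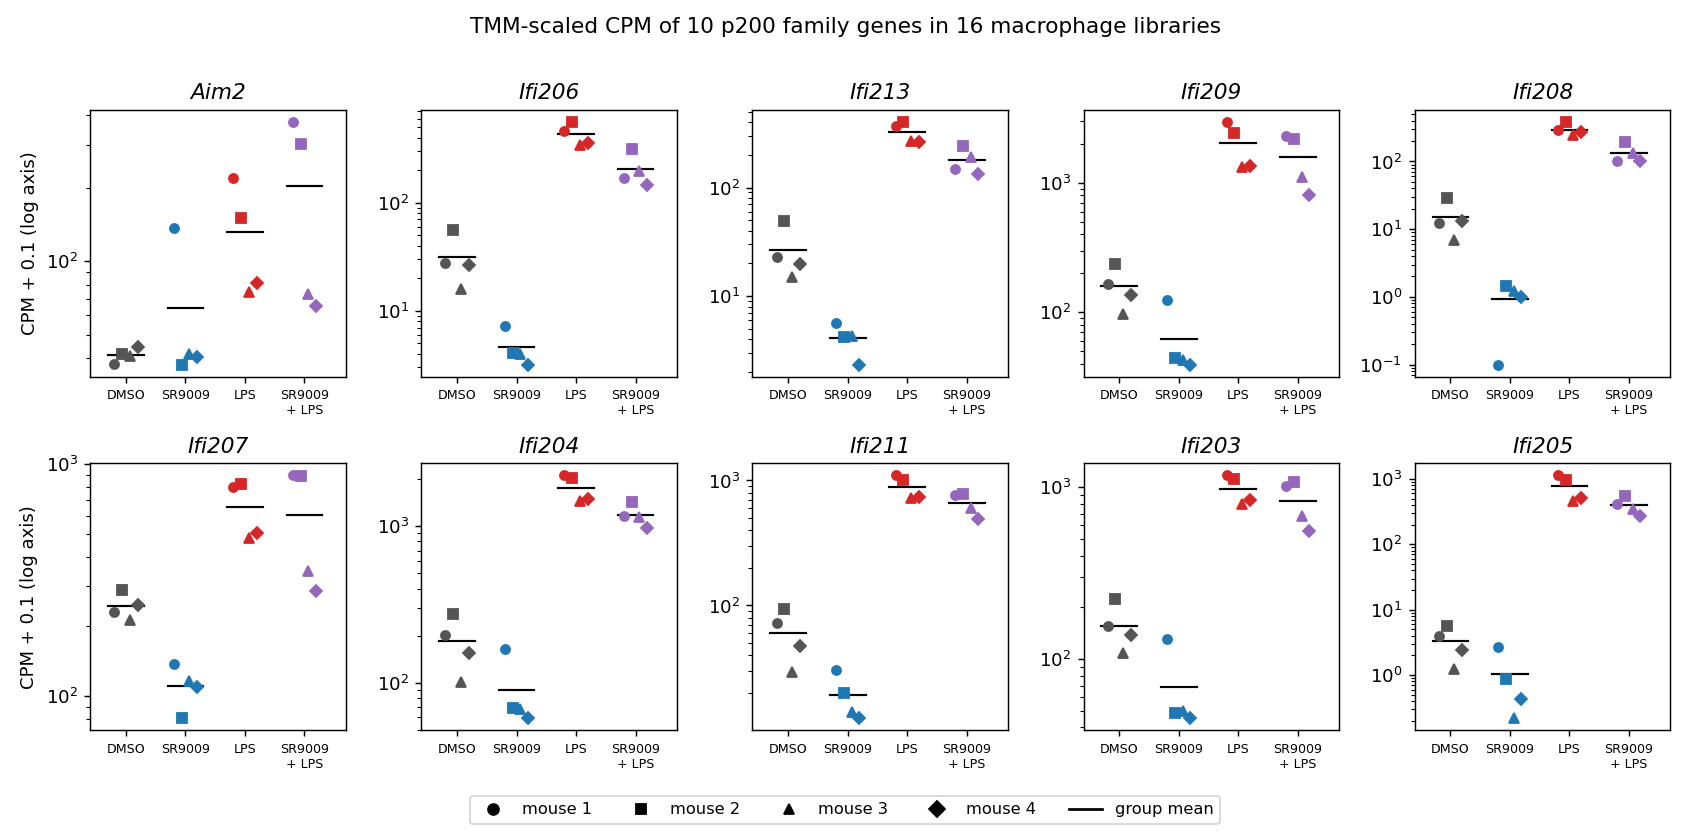
CPM of the 10 genes in all 16 libraries (logarithmic axis, CPM + 0.1), with a symbol for each mouse and a line at each group mean. For Ifi208 the SR9009 libraries sit at 0.0 to 1.35 CPM and the DMSO libraries at 6.79 to 28.6 CPM, while for Aim2 the SR9009 library of mouse 1 sits alone at 137 CPM.

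Without LPS, 9 of the 10 genes had negative log2 differences for SR9009 against DMSO (median -1.51, all genes 0.01), and Aim2 had a positive one. Ifi208, Ifi206, Ifi213 and Ifi211 were called lower, 4 of 10 genes, where 0.566% of all tested genes were called lower. No member was called higher, where 0.313% of all genes were. The 9 genes with negative differences were lower in each of the 4 mice, as were 12.8% of all tested genes. All 9 passed at an unadjusted p under 0.05, as did 3.72% of all tested genes in that direction. The groups did not overlap, SR9009 being lower, for Ifi206, Ifi207, Ifi208 and Ifi213, 4 of 10, against 4.64% of all tested genes.

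Ifi208 had the largest difference. Its counts in the SR9009 libraries of mice 1 to 4 were 0, 37, 28 and 26, which is 0.0, 1.35, 1.13 and 0.881 CPM, against 12.2, 28.6, 6.79 and 13.0 CPM in DMSO (log2 difference -4.09, SE 0.582). Ifi206 was at 7.18, 3.98, 3.87 and 3.08 CPM with SR9009 and at 27.4, 55.3, 15.8 and 26.4 CPM in DMSO (log2 difference -2.80, SE 0.389). Ifi213 was at 5.50, 4.13, 4.23 and 2.24 CPM with SR9009 and at 22.9, 48.7, 14.9 and 19.5 CPM in DMSO (log2 difference -2.73, SE 0.374). These 3 genes had the 3 most negative differences of the 10. Their start-site stretches above differ by at most 1 base. Ifi214, a gene of the span outside the 10, shared 43 of 60 bases with each and had -3.04 at very low counts, not called. Ifi203 and Mndal, alike in all 60 bases, had -1.19 and -0.70. Whether the start-site sequence bears on these differences was not tested. Of Ifi206, Ifi208 and Ifi213, the last shares the fewest long transcript stretches with other genes (0.267%), and the part of shared reads was not tested.

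Ifi211 was at 30.1, 19.9, 13.9 and 12.5 CPM with SR9009 and at 72.5, 93.4, 29.1 and 46.8 CPM in DMSO, so that the groups overlapped (log2 difference -1.67, SE 0.350). Ifi205 had 37, 21, 3 and 10 counts with SR9009, or 2.58, 0.767, 0.121 and 0.339 CPM, a log2 difference of -1.87 (SE 0.667) that was not called. Ifi209 (-1.35, SE 0.449), Ifi203 (-1.19, SE 0.352), Ifi207 (-1.14, SE 0.345) and Ifi204 (-1.03, SE 0.340) had smaller differences and were not called.

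The SR9009 library of mouse 1 was the highest of its group for 9 of the 10 genes, Ifi208 being the exception with 0 counts. Ifi209 was at 123 CPM there and at 44.0, 42.9 and 39.2 CPM in mice 2 to 4, against 96.3 to 236 CPM in DMSO. Ifi204 was at 164 CPM there and at 59.2 to 68.9 CPM in the other 3, against 101 to 275 CPM in DMSO. Aim2 was at 137 CPM there and at 37.5, 41.7 and 40.4 CPM in mice 2 to 4, beside 37.6 to 44.3 CPM in DMSO. Without this library, 8 of the 10 genes were called lower, all but Ifi207 and Aim2, with log2 differences of -1.75 for Ifi203, -1.54 for Ifi204, -1.96 for Ifi209 and -2.97 for Ifi205. The difference for Aim2 was then -0.09, against 0.64 (SE 0.561) with it. The share of all tested genes called lower is given only for the fit with this library (0.566%).

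The number of genes called also moved with the other mice. Without any library of mouse 2 it was 2, and without those of mouse 4 it was 0, as it was when only the DMSO and SR9009 libraries entered the fit. With the mouse as a block, which compares treatments within each animal, 6 genes were called lower, Ifi203 (log2 difference -1.26) and Ifi209 (-1.44) being the additions. Ifi211 was lost most often, also without mouse 3, without the DMSO library of mouse 1 or mouse 2, without the LPS library of mouse 2, and without the SR9009 library of mouse 2, mouse 3 or mouse 4 (log2 difference -1.77 to -1.38). For these fits no share of all tested genes called lower is given.

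**Figure D3:**
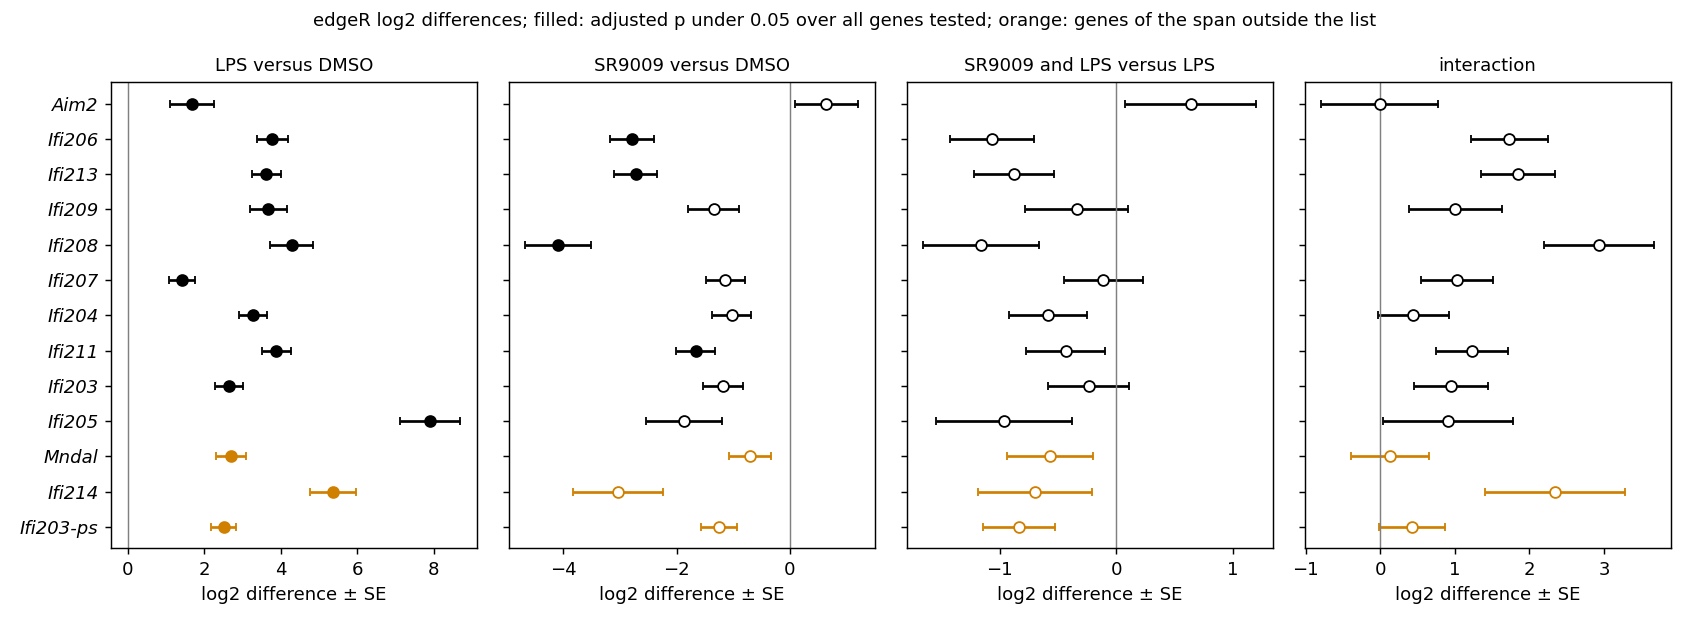
Log2 differences (points) with standard errors (lines) of the 10 genes, and in orange of Mndal, Ifi214 and Ifi203-ps. Shown are LPS against DMSO, SR9009 against DMSO, SR9009 and LPS against LPS, and the difference between the SR9009 effects with and without LPS. SR9009 alone spreads the 10 genes from -4.09 (Ifi208) to 0.64 (Aim2), and their range in the presence of LPS is -1.16 to 0.64.

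In the presence of LPS, 9 of the 10 genes again had negative log2 differences for SR9009 (SR9009 and LPS against LPS alone), but none was called in either direction, where 0.737% of all tested genes were called lower and 1.06% higher. DESeq2 and limma-voom called none either, and 3 of 10 genes (Ifi206, Ifi208 and Ifi213) were lower at an unadjusted p under 0.05, as were 5.74% of all tested genes. The median was -0.51 (all genes 0.02). The groups did not overlap, with SR9009 lower, for Ifi204, Ifi206, Ifi208 and Ifi213, 4 of 10, against 7.78% of all tested genes. With the mouse as a block, Ifi206 was called lower (log2 difference -1.08, adjusted p = 0.0499 by the same edgeR test). Ifi208 was called lower without the SR9009 library of mouse 1, in a fit of only the 2 groups compared and by limma on log2(FPKM + 1), with log2 differences of -1.13, -1.15 and -1.17.

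Ifi208 was at 103, 193, 132 and 103 CPM with both agents and at 290.3, 382, 242 and 269 CPM with LPS alone (log2 difference -1.16, SE 0.496). Ifi206 was at 168, 311, 198 and 145 CPM against 462, 557, 342 and 358 CPM (log2 difference -1.07, SE 0.361). Ifi213 was at 148, 239.8, 189 and 133 CPM against 372, 401, 268 and 260.1 CPM (log2 difference -0.88, SE 0.346). In each of these 3 genes the highest library with both agents lay below the lowest with LPS alone. Ifi204 was at 1159, 1424, 1154 and 980.1 CPM against 2116, 2024, 1445 and 1493 CPM (log2 difference -0.59, SE 0.337), with a narrow gap between the groups.

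Ifi205 was at 411, 551, 346 and 267 CPM against 1129, 970.5, 460 and 510 CPM (log2 difference -0.96, SE 0.580), and its groups overlapped. Ifi211 (-0.43, SE 0.339), Ifi209 (-0.34, SE 0.440) and Ifi203 (-0.23, SE 0.347) had smaller differences, and all 3 were lower with both agents in each of the 4 mice. Ifi207 and Aim2 differed in sign between mice. Ifi207 was 1.12 and 1.08 times its LPS level in mice 1 and 2 and 0.721 and 0.563 times in mice 3 and 4 (log2 difference -0.11, SE 0.340). Aim2 was at 373, 304, 73.1 and 65.6 CPM with both agents, which is 1.70 and 2.02 times its LPS level in mice 1 and 2 and 0.978 and 0.810 times in mice 3 and 4 (log2 difference 0.64, SE 0.560).

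Mice 1 and 2 were both above mice 3 and 4 for 10 of the 10 genes with LPS, 7 in DMSO, 7 with both agents and 5 with SR9009. The same order held for 32.1%, 34.8%, 34.5% and 20.3% of all tested genes in these groups. The labels name no batch that separates these animals, and this order was noticed in the data.

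LPS on top of SR9009 (SR9009 and LPS against SR9009 alone) gave higher levels of all 10 genes, and all 10 were called, where 14.5% of all tested genes were called higher. The log2 differences ran from 1.67 (Aim2) to 8.82 (Ifi205), with a median of 4.90, and the groups did not overlap for 9 of the 10, all but Aim2, against 13.9% of all tested genes. Ifi208 differed by 7.22, Ifi206 by 5.51, Ifi213 by 5.47 and Ifi211 by 5.11, Ifi209 by 4.68, Ifi204 by 3.72, Ifi203 by 3.60 and Ifi207 by 2.45 on the log2 scale. These differences share the SR9009 and LPS libraries or the SR9009 libraries with those above. Aim2 missed the threshold in 13 of 30 other settings, among them the fits without mouse 2, 3 or 4, those lacking the SR9009 library of any of these 3 mice, and those without the library of mouse 1 or mouse 2 that received both agents (log2 difference 1.21 to 1.80).

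Whether the SR9009 difference was itself different with and without LPS was tested as an interaction. No gene of the 10 was called, where 0.0% of all tested genes were called higher (less negative with LPS) and 0.00744% lower, which is 1 gene. The estimates were positive for 9 of 10 genes, with a median of 1.02 (all genes 0.00). The largest were 2.93 (SE 0.736) for Ifi208, 1.85 (SE 0.497) for Ifi213 and 1.73 (SE 0.515) for Ifi206, and that of Aim2 was -0.01 (SE 0.784). At an unadjusted p under 0.05, 5 of 10 were higher (Ifi206, Ifi207, Ifi208, Ifi211 and Ifi213), as were 3.5% of all tested genes. DESeq2 called 1, Ifi208, and limma-voom 0. A smaller SR9009 difference under LPS was therefore not established for any of the 10 genes by the main test.

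Over all 16 libraries, the log2 CPM of the 10 genes correlated with each other at r = 0.457 (Ifi208 with Aim2) to 0.998 (Ifi206 with Ifi213). On this measure Aim2 was the least alike to the others, at 0.457 to 0.776, and Ifi208 correlated at 0.879 to 0.954 with the 8 genes other than Aim2. With the group means removed, the order was another. Ifi208 then had the lowest values, at -0.377 to 0.14 with the other 9, while Aim2 correlated at 0.907 with Ifi207, 0.878 with Ifi209 and 0.805 with Ifi203. Ifi208 had 0 counts in the SR9009 library of mouse 1, in which the other 9 genes were the highest of their group. The correlations were not computed without that library. Libraries of a group share their treatment and those of a mouse their source, so these values are a description.

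The other 11 genes of the span were chosen by position alone, and 5 of them had enough reads to be tested. Mndal (ENSMUSG00000090272, 173676692 to 173708447), a p200 gene between Ifi204 and Ifi211, rose with LPS from 134 ± 29.4 to 868 ± 136 CPM (SD, n = 4; log2 difference 2.70, SE 0.390, edgeR adjusted p = 5.4e-05, higher in 4 of 4 mice). Its SR9009 libraries held 182, 52.8, 52.1 and 43.1 CPM in mice 1 to 4 against 107 to 175 CPM in DMSO, a log2 difference of -0.70 (SE 0.368) that was not called (edgeR adjusted p = 0.470). Without the SR9009 library of mouse 1 it was -1.49 (edgeR adjusted p = 0.00217). In the presence of LPS it was -0.57 and not called, and -0.54 (edgeR adjusted p = 0.0483) without that library.

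Ifi214 (ENSMUSG00000070501, 173347283 to 173363523), which lies between Ifi206 and Ifi213, rose from 0.469 ± 0.396 CPM in DMSO to 19.4 ± 10.2 CPM with LPS (log2 difference 5.37, SE 0.608). It was at 0.0462 ± 0.0359 CPM with SR9009, 5 counts in 4 libraries, a log2 difference of -3.04 (SE 0.792) that was not called by edgeR (adjusted p = 0.114), and was called by DESeq2 (-3.23) and with the mouse as a block (-2.85). The pseudogene Ifi203-ps (ENSMUSG00000090222, 173604095 to 173625836) rose with LPS by 2.51 on the log2 scale and was not called with SR9009 (-1.26, SE 0.320, edgeR adjusted p = 0.0990). Without the SR9009 library of mouse 1, Ifi203-ps was called lower with SR9009 (-1.49). Gm18445, another pseudogene, had 0 counts in DMSO and in SR9009 and 129 counts over the 4 LPS libraries. The fifth, the miRNA gene ENSMUSG00002076962, lies inside Ifi209 on the opposite strand and had 114 counts in all, which without stranded counting cannot be told apart from Ifi209 reads. Ifi202b, the gene of the AIM2 antagonist, had 6 counts over all 16 libraries and was not tested.

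The 3 nearest tested protein-coding genes on each side moved in different directions with LPS. These genes were not adjacent to the span, which runs from 173178445 to 173859376. On the side of Aim2 the closest, Dusp23, ended at 172460529. Fh1, the closest on the other side, began at 175427940. Slamf8, on the side of Aim2, rose with LPS (log2 difference 2.38, edgeR adjusted p = 0.00284), while Fh1 and Opn3, on the side of Ifi205, fell (both -1.07, edgeR adjusted p = 0.00199 and 0.0147). Cfap45, Dusp23 and Kmo were not called. None of the 6 was called in either SR9009 comparison or in the interaction, and DESeq2 called Slamf8 lower with SR9009 alone (-1.89).

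**Figure D4:**
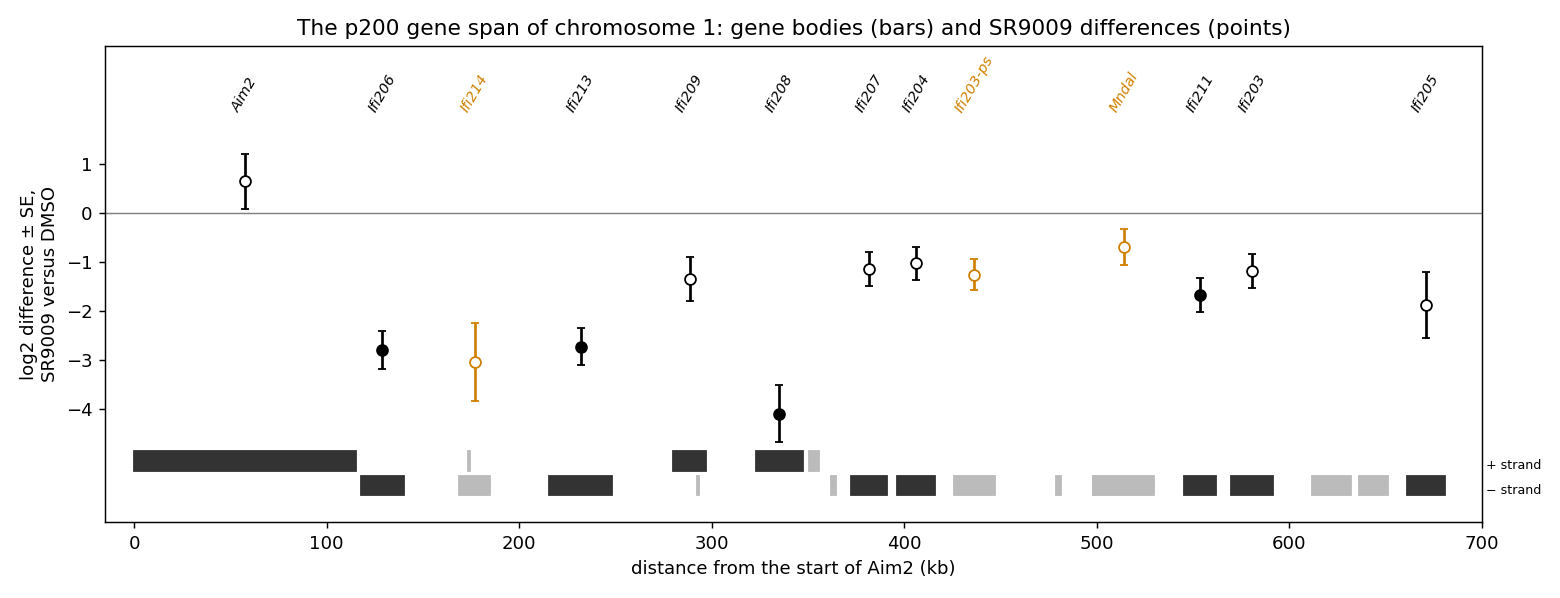
The span of the 10 genes on chromosome 1, with position in kb from the start of Aim2 on the horizontal axis. Bars mark genes (dark for the 10, grey for the others) and points give the SR9009 against DMSO log2 difference with its standard error (filled where adjusted p is under 0.05, orange for Mndal, Ifi214 and Ifi203-ps), and the most negative points are those of Ifi208, Ifi214, Ifi206 and Ifi213.

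The tested protein-coding genes outside the 10 with profiles most like their mean were Ddx58 (r = 0.995), Tpst1 (0.994), Trim30d (0.994), Gbp7 (0.994), Iigp1 (0.994) and Ddx60 (0.992), over 16 libraries and 11577 genes compared. The median r of all compared genes was -0.075 and the 95th percentile 0.891. Ddx58 encodes the RNA sensor RIG-I, and Gbp7 and Iigp1 encode interferon-inducible GTPases. All 6 rose with LPS. With SR9009 alone Iigp1 (-3.75) and Gbp7 (-2.07) were called lower, and Trim30d (-1.02), Ddx60 (-0.98), Ddx58 (-0.95) and Tpst1 (-0.80) were not. None of the 6 was called for SR9009 in the presence of LPS.

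Genes of the interferon pathway, of cytosolic nucleic acid sensing and of the inflammasome were then read from lists chosen with earlier results of these data known. Of 15 tested genes of interferon signalling, 12 rose and 0 fell with LPS (median log2 difference 1.49). Of all tested genes, 19.4% were called higher and 20.4% lower. With SR9009 alone 3 of the 15 fell, among them Irf7 (-1.92, edgeR adjusted p = 0.0349) and Usp18, and 0 rose (median -0.39). Of all tested genes, 0.566% were called lower and 0.313% higher. The count of 3 was not stable. It stayed at 3 without the SR9009 library of mouse 1, but was 0 without mouse 2 or 4, without the DMSO library of mouse 2, without the SR9009 library of mouse 4 and with only the groups compared. It was 1 without mouse 3, without the DMSO library of mouse 1 and without the SR9009 library of mouse 3, and 5 by DESeq2. Irf7 passed in 17 of 30 other settings. Irf7, the interferon regulatory factor that amplifies type I interferon, was at 182 ± 76.5 CPM in DMSO and 48.3 ± 26.3 CPM with SR9009, and at 2414 ± 338 CPM with LPS and 1077.5 ± 301 CPM with both agents (SD, n = 4). Stat2 (-1.30, edgeR adjusted p = 0.130) was not called. None of the 15 was called for SR9009 in the presence of LPS by edgeR (median -0.22), where 0.737% of all tested genes were called lower and 1.06% higher. At an unadjusted p under 0.05, 3 were lower, as were 5.74% of all tested genes. Of the 15, 2 were called lower without the SR9009 library of mouse 1 and by DESeq2, and 1 with the mouse as a block and with only the groups compared. Irf7 was among the genes called in these 4 settings (log2 difference -1.22 to -1.13). The shares of all tested genes above belong to the reported fit, and none is given for the other fits. The transcript of interferon beta itself, Ifnb1, was too low to test, with 3 counts over the 4 DMSO libraries, 23 with LPS, 0 with SR9009 and 58 with both agents.

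Of 22 tested genes of nucleic acid sensing, 10 rose and 4 fell with LPS, where 19.4% of all tested genes were called higher and 20.4% lower. The 4 were Sting1, Mavs, Dnase2a and Lrrfip1. Sting1, the adaptor downstream of cytosolic DNA, fell from 68.8 ± 6.99 to 38.4 ± 10.3 CPM (log2 difference -0.84, edgeR adjusted p = 0.0176), in the direction opposite to the p200 genes, a call lost without mouse 2, 3 or 4 and without the LPS library of mouse 1. Cgas, the enzyme that feeds it, was at 18.2 ± 4.58 and 28.5 ± 3.18 CPM and was not called (0.65, edgeR adjusted p = 0.235). Ifih1, which encodes the RNA sensor MDA5, rose by 3.53. With SR9009 alone 1 of the 22 was called, where 0.566% of all tested genes were called lower. This was Zbp1, a sensor of Z-form nucleic acids, which fell from 77.3 ± 42.5 to 12.8 ± 4.42 CPM (-2.59, edgeR adjusted p = 0.00414). The count was 4 without the SR9009 library of mouse 1, 3 without mouse 1 or with the mouse as a block, 5 by DESeq2, and 0 without mouse 4 or with only the groups compared. At an unadjusted p under 0.05, 8 of the 22 were lower and 0 higher, as were 3.72% and 7.96% of all tested genes. In the presence of LPS 1 was called lower with SR9009, Samhd1, where 0.737% of all tested genes were called lower. This count was 3 without the SR9009 library of mouse 1 and 2 without mouse 1. It was 0 without mouse 2, 3 or 4, without the LPS library of any of these 3 mice, and without the library of mouse 1 or mouse 4 that received both agents. The shares of all tested genes given here are those of the reported fit only. Without adjustment 3 of the 22 were lower and 2 higher at p under 0.05 (5.74% and 7.79% of all tested genes). Sting1 had negative SR9009 differences alone (-0.82, SE 0.260) and in the presence of LPS (-0.84, SE 0.262), and neither was called.

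Of 19 tested inflammasome genes, 12 rose and 1, Txnip, fell with LPS, where 19.4% of all tested genes were called higher and 20.4% lower. The partners of AIM2 were among the genes that rose. Pycard, which encodes ASC, went from 42.7 ± 1.50 to 69.5 ± 6.99 CPM (log2 difference 0.70, edgeR adjusted p = 0.0121) and Casp1 from 62.6 ± 6.32 to 379 ± 9.08 CPM (2.60). The call of Pycard was lost without mouse 2, 3 or 4, and that of Txnip also without the DMSO library of mouse 1 or 2 or the LPS library of mouse 3 or 4. Gsdmd, the pore-forming target of caspase-1, rose by 1.57 and the sensor gene Nlrp3 by 1.66. None of the 19 was called by edgeR with SR9009 alone, although without adjustment 1 was higher and 2 were lower at p under 0.05 (7.96% and 3.72% of all tested genes). Without the SR9009 library of mouse 1, 1 was called higher and 0 lower, and 1 was called lower without the SR9009 library of mouse 2, with the mouse as a block and by DESeq2. None was called for SR9009 in the presence of LPS, although without adjustment 3 were higher and 4 lower at that threshold (7.79% and 5.74% of all tested genes). Without the SR9009 library of mouse 1, 3 were called higher and 3 lower. With the mouse as a block 1 was called in each direction, and with only the groups compared 2 were higher and 1 lower. Without the LPS library of mouse 1, 1 was called higher. For these other fits no share of all tested genes called is given. For SR9009 alone the log2 differences were -0.10 for Pycard and 0.18 for Casp1. They were -0.19 and -0.25 without the SR9009 library of mouse 1. In that library Casp1 was at 121 CPM, against 41.3 to 62.6 CPM in the other 3. Gsdmd (-0.65, SE 0.362) and Nlrp3 (-0.76, SE 0.324) were lower in each of the 4 mice, as were 12.8% of all tested genes, and were not called. In the 10 p200 genes the differences ran from -4.09 to 0.64, the highest being that of Aim2.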

How the data were processed

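Poly(A) RNA of 16 macrophage cultures was sequenced. The authors deposited 1 table of whole-number read counts per gene and, separately for each library, FPKM values per gene. Alignment with HISAT2 to GRCm39 (mm39) comes per the submitters' processing notes. The counting tool, strand setting, annotation release and treatment of reads with several matches were not given in the sources used here. In the deposited table, FPKM equals the count divided by gene length and by 1 constant per library, and it was used for comparing levels between genes. The members and all gene lists were chosen with earlier results of these data known.

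Counts were filtered (filterByExpr, 10 counts), scaled by TMM and fitted over all 16 libraries with edgeR 4.0.16 (robust quasi-likelihood, 1 mean per group) in R 4.3.3 with limma 3.58.1, and p-values were adjusted by the Benjamini-Hochberg method over 13438 genes. CPM uses TMM-scaled totals. The fitting script was tested on simulated data. Standard errors are those implied by the test. DESeq2 1.42.0, limma-voom, limma on log2(FPKM + 1) and log2(FPKM + 0.1), other scalings and filters, the mouse as a block and leaving out libraries were alternatives. Same-numbered libraries come from the same animal per the labels, and in all 24 pairs of them the deviations from the group means correlated (r = 0.0809 to 0.560). The cultures of a mouse are not separate animals, so n = 4 mice. Named genes are the 10 members, the tested genes of their span and the 3 nearest tested protein-coding genes on each side, the 6 genes most alike by Pearson's r of log2 CPM (prior count 2) with the mean standardised profile of the members, and up to 4 preset genes per pathway list, of which 1 is not reported here. Genes named beyond these, as the few called in a list, were chosen after their values were seen. Start-site sequences came from RefSeq (GRCm38.p6) and transcript sequences from GENCODE M21, and no coordinates were carried between assemblies.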

Additional observations from a re-analysis of the deposited data

Results flagged for a closer look

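Of 40 sets of 4 libraries examined (10 genes in 4 groups), 4 held a library far from the other 3, and all 4 concern the SR9009 library of mouse 1. It was high for Ifi203 (131 CPM), Ifi204 (164 CPM), Ifi209 (123 CPM) and Aim2 (137 CPM). Chance marks about 1 in 20 such sets by the limit used (Dixon's 95% critical value), and the 10 genes share the same libraries, so the sets are not independent. This library also had the lowest total count and the fewest detected genes, whose part in these values was not tested.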

How the results depend on the processing

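Over 30 other settings no called value of the 10 genes changed sign, and 19 of 1490 values changed sign without being called, all in Aim2 (SR9009 against DMSO and the interaction), Ifi205 (interaction) and Ifi207 (SR9009 and LPS against LPS). For SR9009 against DMSO the number of genes called lower was 4 in the reported fit, 6 with the replicate block (the mouse), 0 when only the 2 groups compared were fitted, and 0 to 8 when libraries were left out. It was 4 under every other scaling, filter and test run. No share of all tested genes called is given for fits other than the reported one. For SR9009 and LPS against LPS the count of genes called lower was 0 in the reported fit, 1 with the replicate block, 1 by limma on log2(FPKM + 1), 1 with only the groups compared, and 0 to 1 when libraries were left out. The interaction gave 0 genes called higher, 1 by DESeq2 and 0 when libraries were left out, and a fit of only the groups compared was not run for it. With LPS against DMSO 9 to 10 genes were called higher in all settings, and 9 to 10 with SR9009 and LPS against SR9009. The block changed no other call of the 10 genes. The cause of these shifts was not tested. At 0 to 37 counts per library, the SR9009 levels of Ifi205 and Ifi208 are limited by depth.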
